A study of Mus musculus with 9 samples.

Results

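The genes described here encode RNA polymerase III and the factors that mature its tRNA transcripts. They were taken from a list of names and number 42 of the 22396 genes counted. The list holds 12 polymerase subunits, 11 initiation factors and regulators, 3 proteins of tRNA end formation, 10 RNase P proteins, 5 tRNA splicing proteins and 1 export receptor. Their mRNAs were measured in RNA recovered with FLAG-tagged RIG-I from B16F10 cells, a mouse melanoma line. RIG-I is a cytoplasmic sensor of RNA. All cells carried FLAG-tagged RIG-I, and the labels give the genotype as WT. One group expressed a control shRNA (shCtr), and the other groups expressed shOSGEP#1 or shOSGEP#2, which target Osgep. Each group has 3 libraries, made from puromycin-selected cell populations in independent experiments. OSGEP is the enzyme within the KEOPS complex, which places a threonylcarbamoyl group on the adenosine beside the anticodon of many tRNAs.

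RNA polymerase III transcribes the tRNA genes, the 5S rRNA genes and a few other short non-coding RNAs. At tRNA genes TFIIIC binds the promoter inside the gene and brings in TFIIIB, which recruits the polymerase. RNase P then removes the 5′ leader of the precursor, and ELAC2 removes the 3′ trailer. Introns are cut out and the exons ligated, CCA is added and exportin-t carries the tRNA to the cytoplasm. RNA polymerase III is also known in innate immunity, because it copies AT-rich DNA into RNA that RIG-I recognises. The values below are those of the mRNAs for this machinery, and tRNAs themselves were not analysed here.

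Total counts were 40333037, 47750758 and 41805753 in shCtr replicates 1 to 3 and 34551436, 50224299 and 30697653 in shOSGEP#1. They were 25460689, 568995 and 14914731 in shOSGEP#2 replicates 1 to 3. The shallow library, shOSGEP#2 replicate 2, is kept out of the tests and given apart, so the fit holds 8 libraries, with 2 of shOSGEP#2. Levels are in CPM, a gene's counts scaled by the total of its library. A floor of 3 counts corresponds to at most 0.201 CPM in the 8 libraries and to 5.27 CPM in the shallow library, and it covers counting error only. In what follows values are listed for replicates 1 to 3, and for replicates 1 and 3 of shOSGEP#2. Differences are log2 fold changes ± standard error from edgeR's quasi-likelihood test on all genes, and a gene was called at a Benjamini-Hochberg adjusted p under 0.01. No library of the whole lysate was analysed here, so less mRNA in the cell and less mRNA recovered with RIG-I cannot be told apart.

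Some libraries stood apart. In the shallow library 29 of the 42 members had 0 counts, although 26 of these would have had 3 counts or more at their mean share in the other shOSGEP#2 libraries. Xpot had 0 counts where its mean share came to 146 counts, and Gtf3c2 had 0 where it came to 74.8. Of the 13 members with counts, 10 were above their mean share, such as Polr3d with 58 counts against 10.1 and Gtf3c1 with 492 against 207. The library therefore gave a patchy sample of these mRNAs, with many at 0 and several above their share in the deeper libraries. In shOSGEP#1 replicate 3 the 13 mitochondrially encoded genes summed to 29603 CPM, against 1466 to 4453 CPM in the other 7 libraries of the fit. The most abundant of these genes, mt-Co1, had 13279 CPM in replicate 3. Replicates 1 and 2 of shOSGEP#1 summed to 3470 and 4453 CPM, above the 1466 to 3027 of shCtr and the 2109 and 2680 of shOSGEP#2. For shOSGEP#1 against shCtr 12 of these 13 genes were higher at an adjusted p under 0.05 by edgeR and 0 at 0.01. All 13 had an unadjusted p under 0.05, and DESeq2 called 2 of the 5 it tested.

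Melanocyte markers also differed between the groups. All 10 were detected, and their summed level was 6866, 6618 and 9256 CPM in shCtr, 6726, 8138 and 7264 in shOSGEP#1 and 2741 and 3552 in shOSGEP#2. Tyrp1 was the most abundant, and 8 of the 10 were called lower for shOSGEP#2 and 3 for shOSGEP#1 (Tyr, Gpr143 and Trpm1). Markers of other cells were low. The 6 leukocyte markers summed to 4.32 to 6.97 CPM in shCtr and shOSGEP#1 and to 23.4 and 43.6 in shOSGEP#2, mostly Cd74, which was called higher for shOSGEP#2, while Ptprc had at most 0.652 CPM in any of the 8 libraries. Of 4 fibroblast markers tested 2, Col1a1 and Col1a2, were higher for shOSGEP#2 at an adjusted p under 0.05 by edgeR and 0 at 0.01, and DESeq2 called both. All 6 summed to 3.64 to 7.26 CPM in shCtr and shOSGEP#1 and to 16.5 and 39.1 in shOSGEP#2. Col1a2 was the most abundant of them over the 8 libraries, and Lum was at 0 in all 9 libraries. The 4 endothelial markers summed to at most 2.18 CPM, Pecam1 being the most abundant, and of the 4 keratinocyte markers Krt5, Krt1 and Krt10 were at 0 in all 9 libraries. Between the shRNAs edgeR called 2 fibroblast markers and 1 leukocyte marker higher in shOSGEP#2, and 5 melanocyte markers lower. The part of these marker differences in the results for the members was not tested.

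Osgep, the targeted gene, had 19.1, 19.9 and 15.5 CPM in shCtr, 3.76, 1.15 and 1.53 in shOSGEP#1 and 0.0786 and 2.88 in shOSGEP#2. All 5 shOSGEP libraries were far below all shCtr libraries, and replicate 1 of shOSGEP#2 was the lowest. In the mean of both shRNAs the log2 fold change was -3.47 ± 0.64 (edgeR adjusted p = 0.00406). That call was lost without shCtr replicate 1, 2 or 3 (edgeR adjusted p = 0.0197, 0.0223 and 0.0131) or shOSGEP#1 replicate 2 (0.0108). Taken singly, shOSGEP#1 gave -3.10 ± 0.73 (edgeR adjusted p = 0.0128) and shOSGEP#2 gave -3.84 ± 0.93 (0.015), neither under 0.01, although each passed in some alternatives. Leaving out 1 library moved the shOSGEP#2 value between -7.86 (without its replicate 3) and -2.78 (without its replicate 1), and the mean of both between -5.48 and -2.94 in the same fits. In the shallow library Osgep had 0 counts.

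Of the 41 members tested, 5 were called in at least 1 comparison. For shOSGEP#1 against shCtr, 4 of the 41 members tested were called, against 9.67% of all 12744 genes tested (1232 genes), and all 4 were lower, against 4.67% of all genes called lower. These were Polr3f, Polr3g, Crcp and Gtf3c6. For shOSGEP#2 against shCtr, 2 of 41 were called, against 9.55% of all genes (1217), and both were lower, against 3.89%. These were Polr3g and Maf1. For the mean of both shRNAs, 3 of 41 were called, against 9.31% of all genes (1186), all lower, against 4.27%. These were Polr3f, Polr3g and Gtf3c6. Between the shRNAs 1 member was called, Crcp, against 10.8% of all genes (1375). The share of members called was close to or below that of all genes. All calls against shCtr were lower, but for shOSGEP#2 they were only 2, near the share of all genes called lower, and 1 of them, Maf1, was just inside the threshold. At an unadjusted p under 0.05 by edgeR the members numbered 15 for shOSGEP#1, 15 for shOSGEP#2, 15 for the mean of both and 16 between the shRNAs, against 34.9%, 35.6%, 34.9% and 37.1% of all genes, so such counts are common in these data. The comparisons with shCtr share its 3 libraries.

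At an adjusted p under 0.05 by edgeR the counts were 5 of 41 for shOSGEP#1 (21.9% of all genes), 6 of 41 for shOSGEP#2 (21%), 9 of 41 for the mean of both (21.2%) and 6 of 41 between the shRNAs (23.2%). In the mean of both, 8 of these 9 were lower and 1, Tsen15, was higher. The median log2 fold change of the members was -0.06 for shOSGEP#1, -0.27 for shOSGEP#2 and -0.15 for the mean of both. Over all genes tested these medians were 0.0021, -0.06 and -0.04. In 8 members every shOSGEP library lay below every shCtr library, against 8.99% of all genes, and in 2, Gtf3c1 and Tsen15, every one lay above, against 11.9%. The 8 were Polr3f, Polr3g, Polr3k, Polr1c, Gtf3a, Gtf3c6, Maf1 and Rpp30. Rpp25, the untested member, had 2 counts in shCtr replicate 1 and 0 in the other 8 libraries.

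Whether a member passed 0.01 depended on single libraries. Without shCtr replicate 1, or without shCtr replicate 2, 0 members were called in any of the 4 comparisons by edgeR. Calls over all genes were also fewer, at 3.38%, 4.62%, 2.72% and 8.19% of all genes without shCtr replicate 1 and 2.52%, 4.1%, 2.04% and 7.54% without shCtr replicate 2. In these fits 7 to 13 members had an unadjusted p under 0.05, against 26.3% to 34.5% of all genes. Where a library of shOSGEP#2 is left out, 1 is left in that group and the spread comes from the other groups. DESeq2 on the 8 libraries called 5, 4, 8 and 3 members in the 4 comparisons, in the order given, against 20%, 19.4%, 19% and 20.9% of all genes. With the shallow library in the fit 0 of the 41 members were called for shOSGEP#1 (0% of 12337 genes), 0 for shOSGEP#2 (0%) and 0 for the mean of both (0%). Unadjusted p-values under 0.05 numbered 1, 3 and 1 among the members and 620, 1240 and 817 among all genes. Without shOSGEP#1 replicate 3, the library rich in mitochondrial RNA, the counts were 2 for shOSGEP#1 (5.72% of all genes), 4 for shOSGEP#2 (11.6%), 2 for the mean of both (9.27%) and 0 between the shRNAs (8.84%). Between the shRNAs 11 members had an unadjusted p under 0.05 there, against 35.6% of all genes.

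**Figure D1:**
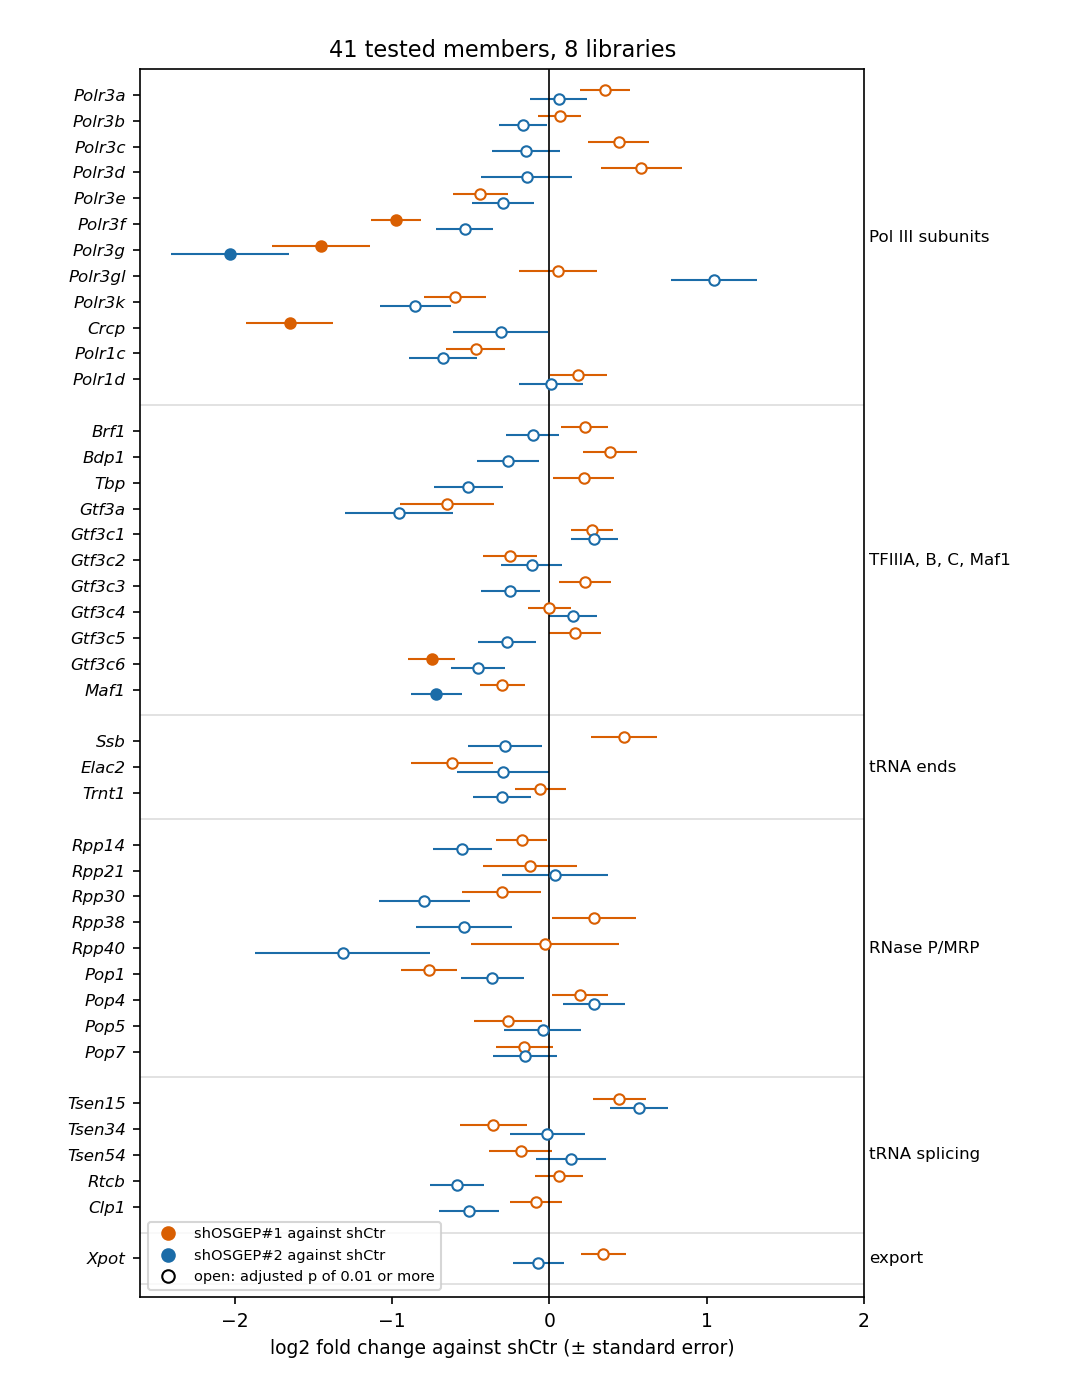
Log2 fold changes against shCtr of the 41 members tested, by role, for shOSGEP#1 (orange) and shOSGEP#2 (blue), in 8 libraries. Bars are standard errors from edgeR and filled points have an adjusted p under 0.01: 4 members for shOSGEP#1 and 2 for shOSGEP#2, all to the left of 0.

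Among the 12 polymerase subunits, 3 fell with shOSGEP#1 (Polr3f, Polr3g and Crcp), and Polr3g fell with shOSGEP#2, against 4.67% and 3.89% of all genes called lower. Unadjusted p-values under 0.05 by edgeR numbered 8 of 12 for shOSGEP#1, 5 for shOSGEP#2 and 7 for the mean of both, against 34.9%, 35.6% and 34.9% of all genes. POLR3F belongs to the heterotrimer with POLR3C and POLR3G or POLR3GL, which is particular to RNA polymerase III and takes part in opening the promoter. Polr3f had 76.1, 78.7 and 74.3 CPM in shCtr, 39.0, 40.4 and 38.3 in shOSGEP#1 and 65.1 and 46.7 in shOSGEP#2. The shOSGEP#1 libraries lay close together at about the same level, clearly below shCtr, and the shOSGEP#2 libraries lay between the other groups without overlapping either. The log2 fold change was -0.97 ± 0.16 for shOSGEP#1 (edgeR adjusted p = 0.00219), -0.54 ± 0.18 for shOSGEP#2 (0.0564) and -0.76 ± 0.14 for the mean of both (0.00423). The shOSGEP#1 call was lost without shCtr replicate 1, shCtr replicate 2 or shOSGEP#1 replicate 2, at an edgeR adjusted p of 0.0106, 0.0149 and 0.012, while the log2 fold change stayed between -0.997 and -0.954 in all 15 alternatives. The call for the mean of both was lost without shCtr replicate 1, 2 or 3 (edgeR adjusted p = 0.0214, 0.0292 and 0.0142) or shOSGEP#1 replicate 2 (0.0117).

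POLR3G and POLR3GL are paralogues, and an RNA polymerase III molecule holds one or the other. POLR3G is the form of stem cells and many tumour cells, and POLR3GL that of most differentiated cells. Polr3g had 9.40, 12.0 and 10.0 CPM in shCtr, 4.83, 3.13 and 3.65 in shOSGEP#1 and 3.26 and 2.15 in shOSGEP#2. It was low in every library, and all 5 shOSGEP libraries were at or below 4.83 CPM while all shCtr libraries were at or above 9.40 CPM. Its log2 fold change was -1.45 ± 0.31 for shOSGEP#1 (edgeR adjusted p = 0.00809), -2.03 ± 0.38 for shOSGEP#2 (0.00377) and -1.74 ± 0.28 for the mean of both (0.00198). Between the shRNAs the difference was -0.58 ± 0.36 (edgeR adjusted p = 0.27).

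The shOSGEP#2 call of Polr3g was lost without shCtr replicate 1, 2 or 3 (edgeR adjusted p = 0.014, 0.0233 and 0.0127) and without shOSGEP#2 replicate 3 (0.0168). For shOSGEP#1 it was lost without any 1 of the 3 shCtr or the 3 shOSGEP#1 libraries, at an edgeR adjusted p of 0.0125 to 0.056, and the log2 fold change was -1.64 to -1.32 in these fits. Fitting the replicate number as a block also ended the shOSGEP#1 call, and no member was then called with each shRNA. In the mean of both the Polr3g call was lost without shCtr replicate 1 or 2 (edgeR adjusted p = 0.0111 and 0.0198).

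Polr3gl had 12.6, 11.2 and 7.87 CPM in shCtr, 10.4, 11.2 and 11.5 in shOSGEP#1 and 17.5 and 29.3 in shOSGEP#2. The shOSGEP#1 libraries lay within the range of shCtr, and both shOSGEP#2 libraries lay above all others. Polr3gl differed by 1.05 ± 0.27 for shOSGEP#2 (edgeR adjusted p = 0.0198) and by 0.99 ± 0.27 between the shRNAs (0.0233), neither of which passed 0.01. DESeq2 called both differences. In the shallow library Polr3gl had 71 counts and Polr3g 0, where their mean shares in the other shOSGEP#2 libraries came to 13.3 and 1.54 counts. Divided by the median length of the annotated coding transcripts, 1894 bases for Polr3g and 1017 for Polr3gl, the mean levels in shCtr were 5.53 ± 0.715 CPM per kb for Polr3g and 10.4 ± 2.37 for Polr3gl (SD, n = 3). In shOSGEP#1 they were 2.04 ± 0.462 and 10.8 ± 0.513 CPM per kb (SD, n = 3), and in shOSGEP#2 1.43 ± 0.416 and 23.0 ± 8.19 (SD, n = 2).

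The balance of the pair can be read in each library from the counts of Polr3gl per count of Polr3g, which is not adjusted for length. This ratio was 1.34, 0.93 and 0.783 in shCtr, 2.16, 3.57 and 3.14 in shOSGEP#1 and 5.37 and 13.7 in shOSGEP#2. The groups did not overlap, with the ratio lowest in shCtr, and the shOSGEP#2 libraries lay widely apart. The ratio was computed after the values of both genes were seen and has no test of its own.

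The promoters of this pair are shown because its genes had log2 fold changes of opposite sign for shOSGEP#2. They are the 250 bases before the gene's start in the RefSeq table of build GRCm38.p6, where 33 of the 42 members had a promoter. Capitals mark letters found among 6 short motifs searched on both strands: the E-box CACGTG (6.02% of all promoters), the M-box core CATGTG (12.3% of all promoters), the CCAAT box CCAAT (33.8% of all promoters), the GC box GGGCGG (32.7% of all promoters), the cAMP response element TGACGTCA (1.55% of all promoters) and the TATA box TATAAA (12.4% of all promoters). The shares are over the same 250 bases of 32851 promoters, and no motif overlapped another in the windows shown. No annotated exon lies in either window. Polr3g is on the minus strand at chr13:81711014-81711263, and its window held 1 GC box, 137 bases before the start. Polr3gl is on the minus strand at chr3:96594182-96594431, with 1 E-box 194 bases before the start and 2 CCAAT boxes 24 and 6 bases before it.
Polr3g: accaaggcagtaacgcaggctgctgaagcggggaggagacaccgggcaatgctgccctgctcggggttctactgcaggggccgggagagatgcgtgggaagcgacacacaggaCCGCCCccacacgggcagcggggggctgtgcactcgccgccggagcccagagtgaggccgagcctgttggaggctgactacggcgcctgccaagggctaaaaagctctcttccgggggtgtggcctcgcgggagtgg
Polr3gl: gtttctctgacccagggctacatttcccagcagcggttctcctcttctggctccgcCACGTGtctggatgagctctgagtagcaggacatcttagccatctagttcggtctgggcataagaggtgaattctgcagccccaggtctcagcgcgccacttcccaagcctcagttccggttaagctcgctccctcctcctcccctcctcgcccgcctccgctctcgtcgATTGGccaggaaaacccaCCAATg
Over the 33 members with a promoter, the E-box was found in 5 (Gtf3c6, Polr3c, Polr3gl, Tsen54 and Xpot), the CCAAT box in 6 and the GC box in 19. The cAMP response element was found in 3, the M-box core in 2 and the TATA box in 1. These matches are a description of the letters in the windows.

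CRCP is the small subunit of the polymerase stalk. Crcp had 46.7, 36.7 and 33.8 CPM in shCtr, 15.1, 14.6 and 7.85 in shOSGEP#1 and 40.7 and 26.1 in shOSGEP#2. All shOSGEP#1 libraries were well below all other libraries, with replicate 3 the lowest, while shOSGEP#2 replicate 1 lay within the shCtr range and replicate 3 below it. Crcp differed by -1.65 ± 0.28 (log2) for shOSGEP#1 (edgeR adjusted p = 0.00236) and -0.31 ± 0.30 for shOSGEP#2 (0.493), and the difference between the shRNAs was itself called, at 1.34 ± 0.30 (edgeR adjusted p = 0.00889). Without shCtr replicate 1 or 2 the shOSGEP#1 call was lost (edgeR adjusted p = 0.0124 and 0.0111). The call between the shRNAs was lost without any 1 of the 3 shCtr or 3 shOSGEP#1 libraries (edgeR adjusted p = 0.0125 to 0.0178) and without shOSGEP#2 replicate 1 (0.0663). It was also lost in the fit of only shOSGEP#1 and shOSGEP#2. The mean of both shRNAs was -0.98 ± 0.24 (edgeR adjusted p = 0.0148).

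Of the other subunits, Polr3k and Polr1c passed an adjusted p of 0.05 in the mean of both shRNAs but not 0.01. POLR3K takes part in RNA cleavage and termination, and POLR1C is shared with RNA polymerase I. Their log2 fold changes in the mean of both were -0.73 ± 0.18 (edgeR adjusted p = 0.0142) for Polr3k and -0.57 ± 0.17 (0.0341) for Polr1c. For shOSGEP#2 they were -0.85 ± 0.23 (edgeR adjusted p = 0.0224) and -0.67 ± 0.22 (0.0474). Polr3k was called for shOSGEP#2 and for the mean of both by DESeq2 and by edgeR without the low count filter. Polr1c was called for shOSGEP#2 by edgeR without shOSGEP#1 replicate 3. Polr1d, the other subunit shared with RNA polymerase I, drew the most counts of the 12 on average, with 103, 110.5 and 129.8 CPM in shCtr, 126, 126 and 142 in shOSGEP#1 and 92.3 and 156 in shOSGEP#2. Its groups overlapped, and the mean of both shRNAs was 0.10 ± 0.17 (edgeR adjusted p = 0.716). The large catalytic subunits Polr3a and Polr3b and the subunits Polr3c, Polr3d and Polr3e had log2 fold changes from -0.44 to 0.59 for the single shRNAs, none past an adjusted p of 0.05. Polr3d overlapped between the groups at 14.3 to 38.5 CPM over the 8 libraries.

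**Figure D2:**
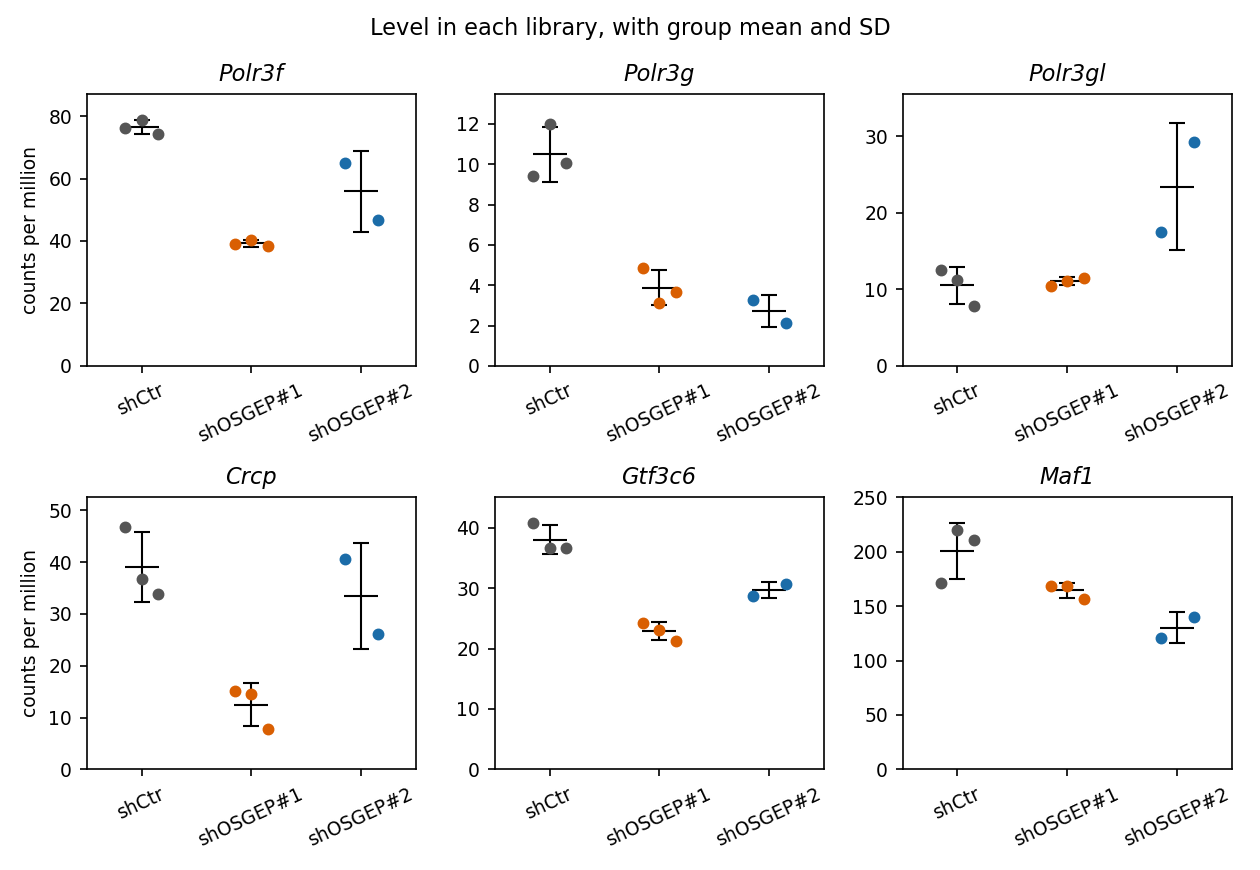
Level in CPM of the 5 members called in any comparison (Polr3f, Polr3g, Crcp, Gtf3c6 and Maf1) and of Polr3gl, in 3 shCtr, 3 shOSGEP#1 and 2 shOSGEP#2 libraries. Each point is a library, bars are the mean and SD of the group, the vertical axes start at 0, and the shallow library is not drawn. Polr3g lies between 2.15 and 4.83 CPM in the 5 shOSGEP libraries and between 9.40 and 12.0 CPM in shCtr, while Polr3gl is highest in the 2 shOSGEP#2 libraries.

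Among the 11 initiation factors and regulators, Gtf3c6 fell with shOSGEP#1 and Maf1 with shOSGEP#2, where 4.67% and 3.89% of all genes were called lower. Their unadjusted p-values under 0.05 by edgeR numbered 2 of 11 for shOSGEP#1, 4 for shOSGEP#2 and 4 for the mean of both, beside 34.9%, 35.6% and 34.9% of all genes. GTF3C6 is the smallest subunit of TFIIIC. Gtf3c6 had 40.8, 36.7 and 36.7 CPM in shCtr, 24.2, 23.1 and 21.3 in shOSGEP#1 and 28.8 and 30.6 in shOSGEP#2. All shOSGEP libraries were below all shCtr libraries, and the shOSGEP#1 libraries were below those of shOSGEP#2. Its log2 fold change was -0.75 ± 0.15 for shOSGEP#1 (edgeR adjusted p = 0.00595), -0.45 ± 0.17 for shOSGEP#2 (0.0826) and -0.60 ± 0.13 for the mean of both (0.00974). The last value was just inside the threshold and passed it in 1 of 14 alternatives, DESeq2, with an edgeR adjusted p of 0.0107 to 0.0595 without any 1 of the 8 libraries. The shOSGEP#1 call was lost without any 1 of the 3 shCtr or the 3 shOSGEP#1 libraries (edgeR adjusted p = 0.0134 to 0.0326), with log2 fold changes of -0.79 to -0.70.

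MAF1 represses RNA polymerase III when growth signals are withdrawn. Maf1 had 171, 219.6 and 211 CPM in shCtr, 168, 169 and 157 in shOSGEP#1 and 120.4 and 140.2 in shOSGEP#2. Its level was lowest in shOSGEP#2, and the highest shOSGEP#1 libraries came close to the lowest shCtr library without reaching it. Maf1 differed by -0.30 ± 0.14 (log2) for shOSGEP#1 (edgeR adjusted p = 0.157), -0.72 ± 0.16 for shOSGEP#2 (0.00996) and -0.51 ± 0.13 for the mean of both (0.0159). The shOSGEP#2 value was just inside the threshold and passed it in 3 of 15 alternatives. It was lost with RLE normalization (edgeR adjusted p = 0.0113), with library totals only (0.0195), in the fit of only the groups compared (0.0211) and without any 1 of the 7 libraries other than shOSGEP#1 replicate 3, at an edgeR adjusted p of 0.0114 to 0.0475. The test between the shRNAs gave -0.42 ± 0.16 (edgeR adjusted p = 0.0805). Melanocyte markers were lower in the same shOSGEP#2 libraries, and their part in this result was not tested.

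TFIIIA, encoded by Gtf3a, binds the 5S rRNA gene. Gtf3a had 78.2, 75.1 and 89.3 CPM in shCtr, 60.3, 70.1 and 25.3 in shOSGEP#1 and 49.6 and 39.0 in shOSGEP#2. Every shOSGEP library was below every shCtr library, with shOSGEP#1 replicate 3 far below the others of its group. The mean of both shRNAs was -0.80 ± 0.27 (edgeR adjusted p = 0.0528), which did not pass. Without shOSGEP#1 replicate 3 edgeR called Gtf3a lower for shOSGEP#2. The exons of Gtf3a share 1505 bases with those of Mtif3 on the opposite strand in the GRCm38 annotation. The libraries were made with a stranded kit, but the use of strand in counting is not given in the sources used here. The counts of Gtf3a are therefore uncertain. GTF3C1 is the largest TFIIIC subunit and binds the B box of tRNA genes. Gtf3c1 drew the most counts of these 11 genes, with 263, 277 and 298 CPM in shCtr, 348, 316 and 355 in shOSGEP#1 and 342 and 387 in shOSGEP#2. All shOSGEP libraries lay above all shCtr libraries, by a small margin, and the mean of both shRNAs was 0.28 ± 0.12 (edgeR adjusted p = 0.129).

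Of the TFIIIB subunits, Bdp1 and Tbp passed an adjusted p of 0.05 between the shRNAs, at -0.65 ± 0.20 (edgeR adjusted p = 0.037) and -0.73 ± 0.22 (0.0347), and neither did so against shCtr. Brf1, the subunit particular to RNA polymerase III, had 31.3 to 41.1 CPM over the 8 libraries and a log2 fold change of 0.06 ± 0.14 in the mean of both. Tbp, which serves all nuclear RNA polymerases, shares 2582 bases with Pdcd2 on the opposite strand. Gtf3c2, Gtf3c3, Gtf3c4 and Gtf3c5 had log2 fold changes from -0.27 to 0.23 for the single shRNAs and did not pass an adjusted p of 0.05. Exons of Gtf3c2 and Gm29609 overlap by 2556 bases on the same strand, so counts of Gtf3c2 could be split between them.

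None of the 3 genes of tRNA end formation was called by edgeR or DESeq2 against shCtr, while 2 of 3 had an unadjusted p under 0.05 by edgeR for shOSGEP#1 (34.9% of all genes), 0 for shOSGEP#2 (35.6%) and 0 for the mean of both (34.9%). SSB, the La protein, binds the uridines at the 3′ end of new RNA polymerase III transcripts. Ssb had 124, 122 and 162 CPM in shCtr, 173, 160.5 and 239 in shOSGEP#1 and 92.3 and 148 in shOSGEP#2. The shOSGEP#1 libraries were near or above the top of the shCtr range, and shOSGEP#2 replicate 1 lay below shCtr while replicate 3 lay within its range. The log2 fold change was 0.48 ± 0.21 for shOSGEP#1 and -0.28 ± 0.24 for shOSGEP#2, and the difference between the shRNAs was -0.76 ± 0.24 (edgeR adjusted p = 0.0426).

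ELAC2 is the enzyme that cuts the 3′ trailer of tRNA precursors. Elac2 had 45.9, 42.6 and 33.5 CPM in shCtr, 28.9, 28.2 and 23.0 in shOSGEP#1 and 47.6 and 22.4 in shOSGEP#2. The shOSGEP#1 libraries were below shCtr, but the shOSGEP#2 libraries lay apart, with replicate 1 above and replicate 3 below all shCtr libraries. The mean of both shRNAs was -0.46 ± 0.23 (edgeR adjusted p = 0.184). Trnt1, which encodes the CCA-adding enzyme, ranged from 99.2 to 151 CPM, with a log2 fold change of -0.18 ± 0.15 in the mean of both.

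Of the 10 RNase P proteins 9 were tested, and none was called in the main fit by edgeR. DESeq2 called Pop1 for shOSGEP#1 and for the mean of both shRNAs. For shOSGEP#1 edgeR called Pop1 without the low count filter, in the fit of only the groups compared and with replicate number as a block. This list covers the alternatives at 0.01 that left more than 1 library in every group. Unadjusted p-values under 0.05 by edgeR numbered 1 of 9 for shOSGEP#1, 3 for shOSGEP#2 and 3 for the mean of both, at or below the share over all genes (34.9%, 35.6% and 34.9%). POP1 is the largest protein of RNase P and of the related RNase MRP. Pop1 had 73.8, 84.0 and 67.1 CPM in shCtr, 49.7, 47.8 and 35.9 in shOSGEP#1 and 69.3 and 54.6 in shOSGEP#2. All shOSGEP#1 libraries were below all shCtr libraries, and shOSGEP#2 replicate 1 lay within the shCtr range. On the log2 scale this was -0.77 ± 0.18 for shOSGEP#1 (edgeR adjusted p = 0.0118) and -0.56 ± 0.16 for the mean of both (0.0269).

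Rpp40 had the largest fitted change of the 9 in the mean of both shRNAs. Its level was 11.2, 9.84 and 8.11 CPM in shCtr, 10.0, 9.34 and 9.41 in shOSGEP#1 and 6.95 and 1.07 in shOSGEP#2. Both shOSGEP#2 libraries were below all others, replicate 3 far below and replicate 1 slightly, and the mean of both shRNAs was -0.67 ± 0.42 (edgeR adjusted p = 0.287). Without shOSGEP#2 replicate 1 this difference was -1.67 and without replicate 3 it was -0.29, each with 1 shOSGEP#2 library in the fit, so its size depends on a single library. The other RNase P genes were Rpp14, Rpp21, Rpp30, Rpp38, Pop4, Pop5 and Pop7, with log2 fold changes in the mean of both from -0.55 ± 0.22 for Rpp30 to 0.24 ± 0.16 for Pop4. Rpp30 had 6.70 to 17.4 CPM over the 8 libraries, the lowest in shOSGEP#2 replicate 3. Rpp25 was at or near 0, whereas its paralogue Rpp25l, which is not a member, had 13.4 to 33.3 CPM.

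Of the 5 tRNA splicing genes none was called by edgeR, while unadjusted p-values under 0.05 numbered 1 of 5 for shOSGEP#1, 3 for shOSGEP#2 and 1 for the mean of both, against 34.9%, 35.6% and 34.9% of all genes. DESeq2 called Tsen15 in the mean of both. TSEN15 is a structural subunit of the endonuclease that cuts tRNA introns. Tsen15 had 18.2, 19.5 and 20.8 CPM in shCtr, 26.4, 30.1 and 23.9 in shOSGEP#1 and 30.8 and 30.9 in shOSGEP#2. Each shOSGEP library was above each shCtr library, at similar levels with both shRNAs. The log2 fold change was 0.51 ± 0.15 in the mean of both (edgeR adjusted p = 0.0366), the one positive value among the 9 members past 0.05 there. Tsen34, the catalytic subunit for the 3′ splice site, and Tsen54 had -0.18 ± 0.19 and -0.02 ± 0.18 in the mean of both. Clp1, an RNA kinase bound to this endonuclease, had -0.30 ± 0.15.

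RTCB is the ligase that joins the tRNA exons. Rtcb had 221, 241 and 253 CPM in shCtr, 255, 212 and 286 in shOSGEP#1 and 156 and 185 in shOSGEP#2. Both shOSGEP#2 libraries were below all others, and shOSGEP#1 overlapped shCtr. Rtcb differed by -0.59 ± 0.17 (log2) for shOSGEP#2 (edgeR adjusted p = 0.0333) and -0.65 ± 0.17 between the shRNAs (0.0207), and the latter was called by DESeq2. Of 27 other genes of the pathway that were tested, 1 was called by edgeR, Fam98b, for shOSGEP#2 (9.55% of all genes) and between the shRNAs (10.8%). DESeq2 called Polr2e, Snapc1, Xpo5 and Zbtb8os for shOSGEP#1, Fam98b, Polr2f and Rtraf for shOSGEP#2, Polr2e, Snapc1 and Xpo5 in the mean of both and Fam98b, Polr2f, Rtraf and Zbtb8os between the shRNAs. FAM98B is a subunit of the tRNA ligase complex around RTCB. Fam98b had 51.9, 42.7 and 53.5 CPM in shCtr, 48.9, 48.7 and 59.0 in shOSGEP#1 and 20.7 and 31.6 in shOSGEP#2. The shOSGEP#2 libraries were the lowest, and shOSGEP#1 overlapped shCtr. Its log2 fold change was -1.02 ± 0.21 for shOSGEP#2 (edgeR adjusted p = 0.00691) and -1.09 ± 0.21 between the shRNAs (0.00449).

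The remaining subunits of this ligase complex were chosen after their values were seen. Rtraf had a log2 fold change of -0.83 ± 0.23 for shOSGEP#2 (edgeR adjusted p = 0.0275) and Ddx1, its helicase, 0.10 ± 0.14 (0.668). Zbtb8os, which encodes archease, the activator of the ligase, had 0.73 ± 0.17 for shOSGEP#1 (edgeR adjusted p = 0.0129) and 0.02 ± 0.19 for shOSGEP#2 (0.96). Rtcb, Fam98b and Rtraf had their lowest values in the shOSGEP#2 libraries, which is a description, since only Fam98b passed 0.01 by edgeR. Melanocyte markers were lower in the same shOSGEP#2 libraries, and their part here was not tested.

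**Figure D3:**
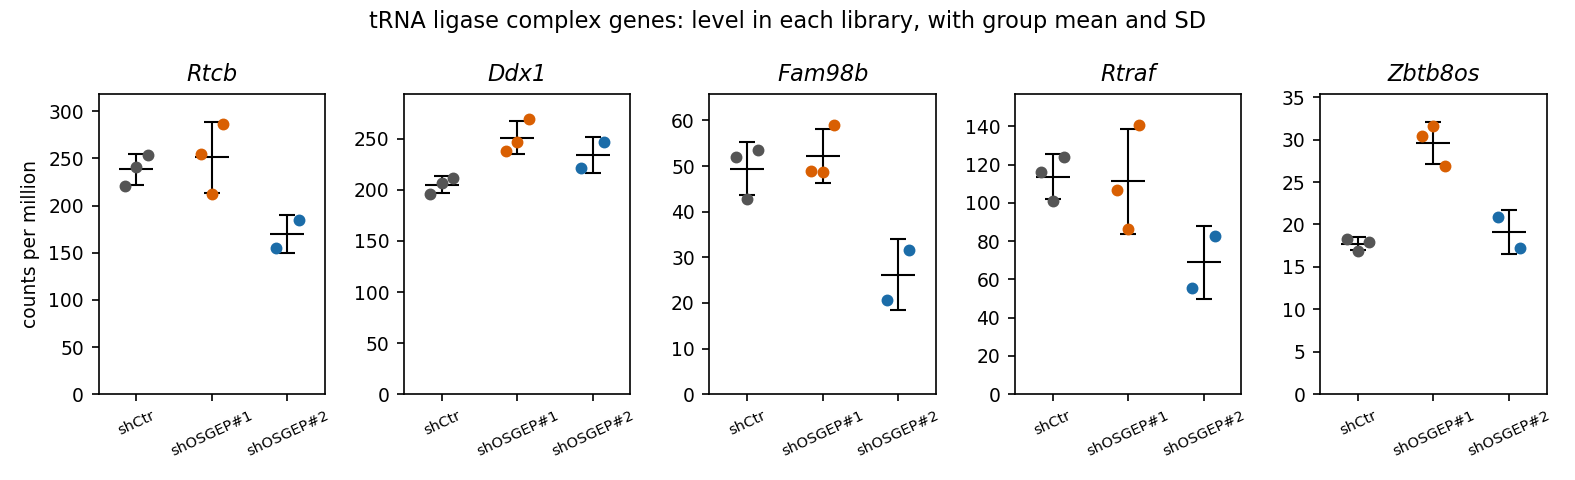
Level in CPM of the member Rtcb and of 4 other genes of the tRNA ligase complex in 3 shCtr, 3 shOSGEP#1 and 2 shOSGEP#2 libraries. Each point is a library, bars are the mean and SD of the group, the vertical axes start at 0, and the shallow library is not drawn. Rtcb, Fam98b and Rtraf are lowest in the 2 shOSGEP#2 libraries, and Zbtb8os is highest in the 3 shOSGEP#1 libraries.

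Exportin-t, encoded by Xpot, carries mature tRNAs out of the nucleus. Xpot had 251, 285 and 220.2 CPM in shCtr, 347, 328 and 293 in shOSGEP#1 and 241 and 272 in shOSGEP#2. All 3 shOSGEP#1 libraries were above shCtr and both shOSGEP#2 libraries within its range. It was not called by edgeR or DESeq2 in any comparison, with an unadjusted p under 0.05 by edgeR for shOSGEP#1 and between the shRNAs. The mean of both shRNAs was 0.14 ± 0.13 (edgeR adjusted p = 0.501). In the shallow library Rtcb had 103 counts, close to the 96.7 of its mean share, while Xpot, Ssb and Maf1 had 0 counts each, where 68.4 would have been the count of Ssb and 74.1 that of Maf1.

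shOSGEP#2 rests on 2 libraries in the fit, and every call of a member was lost in at least 1 fit that left out a library. All comparisons with shCtr use the same 3 control libraries. CPM is a share of what was recovered, so a gene's value also depends on the other RNAs of the library. Levels of mRNA say nothing of the amount or activity of the polymerase or of the processing enzymes. Members whose exons overlap other genes have uncertain counts. Besides Gtf3a, Tbp and Gtf3c2, these are Brf1, Elac2, Polr3b, Polr3gl, Pop4, Rpp40, Rtcb, Ssb, Trnt1 and Tsen34. Polr3gl shares 57 bases with Gm16253, and Ssb shares 431 with Gm13625 and 169 with Mettl5, all on the opposite strand. Of the 10 melanocyte markers, 8 were also called lower for shOSGEP#2 and 3 for shOSGEP#1, where 4 had a positive log2 fold change.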

How the data were processed

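The count table used is that of the authors, in whole numbers without normalization, made with TrimGalore, STAR and Salmon on GRCm39. Groups and replicate numbers came from the labels. Members and lists were chosen with earlier results of these data known. The 42 members were matched by symbol, and 22237 of the 22396 identifiers had one. Counts were fitted with edgeR 4.0.16 (R 4.3.3) by the quasi-likelihood test after TMM normalization and the filterByExpr filter, with a coefficient per group, no covariate and 8 libraries. Adjustment (Benjamini-Hochberg) ran over 12744 genes, and each standard error came from the fold change and its F statistic. The tests were also run on simulated counts with the same spread for all genes and no unusual library. That run cannot show how the tests behave in these data. For each of the 8 libraries in the fit, values are given for Osgep, members called at 0.01 and other pathway genes past 0.01. They are also given for the member of highest CPM and of largest change in each role, Polr3g, Polr3gl, Maf1 and Ssb. Alternatives were all 9 libraries, DESeq2 1.42.0, RLE, library totals, no filter, an adjusted p under 0.05, only the groups compared, a replicate block and leaving out each library. Transcript lengths and overlaps came from GENCODE for GRCm38, while the counts used a later build, so per-length levels are approximate. Replicates were not duplicates, since counts of every pair within a group differed by more than sampling noise. Of the genes listed, the 9 RNA polymerase III transcripts, Prorp, Polr1f, Polr1g and Polr1h are not analysed here. Plots used Python 3.11.15 and matplotlib 3.10.9.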

Additional observations from a re-analysis of the deposited data

Results flagged for a closer look

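Crcp differed between the shRNAs by the test of the difference itself. Its log2 fold change for shOSGEP#2 against shOSGEP#1 was 1.34 ± 0.30 (edgeR adjusted p = 0.00889), and both shOSGEP#2 libraries were above all 3 shOSGEP#1 libraries. With all 9 libraries it was 0.82 (edgeR adjusted p = 0.835), and over its 15 alternatives the edgeR or DESeq2 adjusted p ran from 0.000179 to 0.835. The call was lost without any 1 of the 3 shCtr or the 3 shOSGEP#1 libraries, the lowest value being 1.10 without shOSGEP#1 replicate 3, and without shOSGEP#2 replicate 1, at 0.95 (edgeR adjusted p = 0.0663). The fit of only shOSGEP#1 and shOSGEP#2 also lost the call. Crcp had 0 counts in the shallow library, where its mean share came to 19.0 counts.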

How the results depend on the processing

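Counts are given for shOSGEP#1, shOSGEP#2, the mean of both shRNAs and shOSGEP#2 against shOSGEP#1, in this order. Members called were 4, 2, 3 and 1, and genes called 1232, 1217, 1186 and 1375. With all 9 libraries both were 0 throughout, with 1, 3, 1 and 2 members at an unadjusted p under 0.05 by edgeR. DESeq2 gave 5, 4, 8 and 3 members and 2419, 2405, 2365 and 2592 genes. An adjusted p under 0.05 gave 5, 6, 9 and 6 members and 2797, 2674, 2707 and 2952 genes. RLE normalization and library totals only each gave 4, 1, 2 and 1 members, with 1256, 1224, 1205 and 1390 genes for the former and 1254, 1276, 1217 and 1391 for the latter. No filter gave 5, 3, 4 and 1 members and 1748, 1603, 1686 and 1803 genes. A fit of only the groups compared has no value for the mean of both, and gave 5 members and 1495 genes for shOSGEP#1, 1 member and 1023 genes for shOSGEP#2 and 0 members and 737 genes between the shRNAs, where 10 members and 31.9% of all genes had an unadjusted p under 0.05. Leaving out 1 library in turn gave 0 to 5, 0 to 4, 0 to 5 and 0 to 4 members and 318 to 1458, 518 to 1471, 258 to 1351 and 743 to 1504 genes.

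Fitting the replicate number as a block gave 4, 1, 3 and 2 members and 1380, 1238, 1341 and 1393 genes. For shOSGEP#1 Polr3g was lost and Pop1 gained, for shOSGEP#2 Maf1 was lost, in the mean of both Gtf3c6 was lost and Crcp gained, and between the shRNAs Ssb was gained. No member was then called with each shRNA (Polr3g for shOSGEP#1: edgeR adjusted p = 0.013). Deviations from the group means correlated by -0.00483 to 0.178 over the 7 same-numbered pairs of libraries, 3 of them above 0.1, with a mean of 0.0801 against -0.0394 for pairs of other numbers. Since 4 pairs were not above 0.1, the numbers were not used as pairing in the main fit. Not every library correlated best with its own number. These correlations cannot exclude pairing, because the 2 shOSGEP#2 libraries deviate from their mean by equal and opposite amounts.

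The log2 fold change of Osgep was negative in all alternatives. For the mean of both it missed 0.01 with all 9 libraries (-3.53, edgeR adjusted p = 0.428) and ran from -5.48 to -2.94 without 1 library. It passed without the filter for shOSGEP#1 (-3.10) and shOSGEP#2 (-3.84), in the fit of only the groups compared for shOSGEP#1 (-3.11) and with DESeq2 for shOSGEP#2 (-3.72). It also passed for shOSGEP#1 without shOSGEP#2 replicate 1 or 3 (edgeR adjusted p = 0.000964 and 0.00092) and for shOSGEP#2 without its replicate 3 (0.00134). Without 1 library it was -3.77 to -2.79 for shOSGEP#1 and -7.86 to -2.78 for shOSGEP#2. Among the members given by library, 3 values below 0.15 in size changed sign in the mean of both: Polr1d without shOSGEP#2 replicate 3 (-0.10 to 0.25 over leaving out each library), Ssb with all 9 libraries (-0.18) and without shOSGEP#1 replicate 3 (-0.00073) or shOSGEP#2 replicate 3 (-0.0762 to 0.25 over leaving out each library), and Xpot with all 9 libraries (-0.15). Of all 41 members, 7 changed sign there with all 9 libraries, the others being Polr3c, Brf1, Gtf3c4, Pop4 and Pop5. The sign of every called member was the same in all its alternatives. The median of all genes for shOSGEP#2 was -0.37 with all 9 libraries, beside -0.73 for the members. With library totals only 901 genes were called higher and 375 lower for shOSGEP#2, against 721 and 496. The causes were not tested. Depth and the 2 libraries of shOSGEP#2 could limit the smaller differences, which was not tested either.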

Other observations

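Genes of RNA polymerases I and II, a list beside the members, gave no call by edgeR among 11 tested, while unadjusted p-values under 0.05 numbered 2 for shOSGEP#1, 6 for shOSGEP#2 and 3 for the mean of both shRNAs, against 34.9%, 35.6% and 34.9% of all genes. DESeq2 called Polr1e for shOSGEP#2 and Polr2b between the shRNAs. Their median log2 fold change was 0.07, -0.51 and -0.24 in the same order, beside -0.06, -0.27 and -0.15 for the members.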
